A study of Arabidopsis thaliana with 4 samples.

Results

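Expression of the photosynthesis genes carried on the chloroplast genome was measured in Arabidopsis thaliana Col-0, the standard laboratory accession, that had or had not shared the air of a plate with Pseudomonas syringae DC3000, a leaf pathogen of tomato and Arabidopsis. The genes are the chloroplast psa, psb, pet and atp genes, rbcL, ycf3 and ycf4, chosen by locus identifier, 35 loci in all. Of these, 21 loci were read by 25 probes among the 29030 loci on the array, and all 21 entered the test over 22690 genes. The other 14 loci, psbF, psbI, psbJ, psbL, psbM, psbN, psbT, psaI, psaJ, petG, petL, petN, atpH and atpI, have no probe under their identifier and were not analysed here. The scanner files and the gene table used here do not pair these identifiers with names, so each gene carries the standard name of its locus in Arabidopsis nomenclature.

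In the exposed group, plants at the top of an upright plate shared its headspace with bacteria at the bottom. The control plates held no bacteria. The series title names the exposure as one to mVOCs, an abbreviation in common use for volatile organic compounds of microbes, and sets exposed against control plants. Per the series design the plants were grown for 8 days on agar and the exposure lasted 12 hours, while the sample labels give 12 days, a difference not resolved in the sources used here. The labels name no tissue. Each of 4 two-colour arrays held exposed RNA in the red dye Cy5 and control RNA in the green dye Cy3, with no dye swap, so that a dye preference of a transcript and an effect of exposure cannot be told apart. Nothing in the labels says that the RNAs of the 4 arrays came from separate plants, and the p-values rest on array-to-array spread that may be technical only.

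The chloroplast genome encodes core subunits of each complex of the photosynthetic electron transport chain, while the nucleus supplies the other subunits. Photosystem II splits water, the cytochrome b6f complex passes electrons on to photosystem I, the chloroplast ATP synthase uses the proton gradient so built, and Rubisco fixes carbon dioxide with a large subunit from the chloroplast gene rbcL. Most of these genes lie in polycistronic transcription units whose primary transcripts are cut and processed. Stable chloroplast messengers largely lack the long poly(A) tail of nuclear ones. The labels' protocol primed the labelled cDNA with a T-rich oligonucleotide, and which part of each chloroplast transcript was labelled is not given.

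Among the 21 measured genes, 8 were lower in exposed plants, none was higher and 13 were not called, with limma and a Benjamini-Hochberg adjusted p below 0.05 over all tested genes. Among all tested genes 3.4% were called, 1.82% lower and 1.58% higher. The 8 genes were petB (1.49-fold lower), ycf4 (1.47-fold), psaA (1.38-fold), psbB (1.36-fold), atpF (1.34-fold), atpB (1.33-fold), psbC (1.30-fold) and psbH (1.28-fold), which together come from both photosystems, the cytochrome complex, the ATP synthase and photosystem I assembly. Their adjusted p in limma lay between 0.016 and 0.047, and each of the 8 was below 0 on all 4 arrays. Of the 21 genes 16 were below 0 on every array that measured them, against 20.7% of all tested genes. Over the 21 genes the median log2 ratio of exposed over control was -0.21, against -0.0046 over all tested genes. A fitted ratio below 0 was found for 17 of the 21, against 51% of all tested genes. With plants measured in bulk, fewer cells or chloroplasts and less RNA in each cannot be told apart.

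These directions are relative to other transcripts of the same brightness. Before the brightness-dependent loess correction, 19 of the 21 genes had a mean log2 ratio above 0. The loess curve, which follows the bulk of gene spots, was above 0 at every member's brightness on every array. A ratio above 0 before correction was therefore not particular to the members. The correction took 0.26 to 0.59 off the members on array 1, 0.41 to 0.74 on array 2, 0.22 to 0.61 on array 3 and 0.62 to 0.93 on array 4. When each array was only centred on its median, 0 of the 21 genes were called lower and 2, psbA and psbZ, were called higher in limma, with 7 at an unadjusted p below 0.05. Of all tested genes 0.956% were then called, 0.736% higher and 0.22% lower. The member medians were then 0.10, 0.19, 0.07 and -0.46 on arrays 1 to 4, on the opposite side of 0 on array 4. With the scanner software's own log ratio 10 were lower and none was higher, the 8 genes above among them, where 4.89% of all tested genes were called, 2.34% lower and 2.56% higher.

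The arrays also decide the count. Without array 4, 13 members were called lower and 3 higher in limma, the 8 among them, where 31.1% of all tested genes were called, 14.3% lower and 16.8% higher. Leaving out array 1, array 2 or array 3 left 0 called members, where 0 of all 22690 tested genes were called either, with 14 members at an unadjusted p below 0.05 each time, beside 3580, 3872 and 3494 of all tested genes. Counting arrays 1 to 3 as 1 sample beside array 4 left 0 called members and 0 called genes in all in limma, with 11 members and 1317 genes at an unadjusted p below 0.05. On 50 probes spotted 5 times or more, the median SD of a probe's mean ratio was 0.047 over arrays 1 to 3, and spot-to-spot variation by itself would give 0.051. Over all 4 arrays it was 0.153. An exact sign-flip test over 4 arrays, two-sided, cannot go below p = 0.125 for a single gene.

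**Figure D1:**
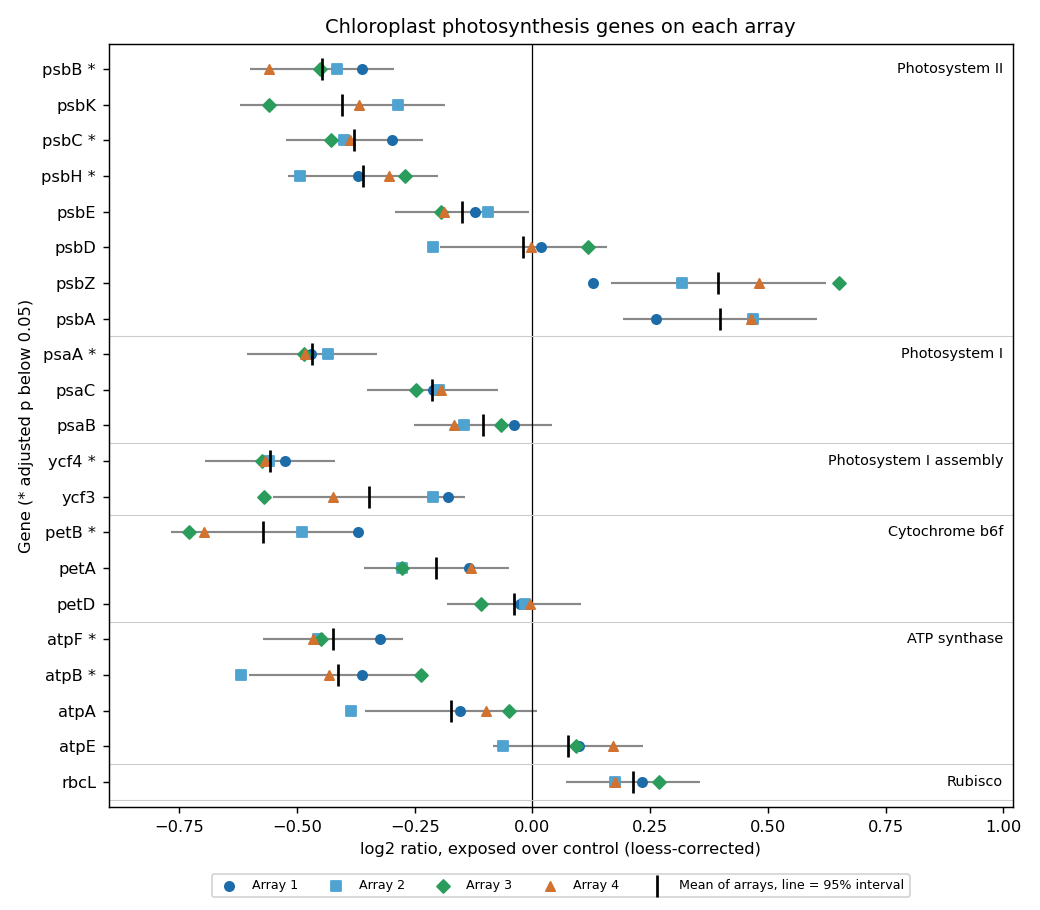
Loess-corrected log2 ratio of exposed over control (x axis) for the 21 measured genes (y axis), grouped by complex; each symbol is 1 array, the black bar is the fitted mean and the grey line its 95% interval from limma. The 8 genes with an asterisk lie below 0 on every array, while psbA, psbZ and rbcL lie above 0 on every array that measured them.

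Array 4 stood apart from the others in the loess-corrected ratios of all tested genes, while the members' loess-corrected ratios on it followed those on the others. Across 22690 genes, which are not independent replicates, its log2 ratios correlated with those of arrays 1 to 3 with r = 0.221 to 0.288, and those of arrays 1 to 3 with each other with r = 0.648 to 0.779. Across the 21 members, which share their arrays and their range of brightness, they were 0.899 to 0.949 with array 4 and 0.782 to 0.916 among arrays 1 to 3. The member medians were -0.17, -0.28, -0.26 and -0.19 on arrays 1 to 4. On array 4 the median gene spot read 1286 units in the exposed and 575.5 units in the control channel, against 336 to 373 and 292 to 362.5 units on arrays 1 to 3. No member spot was saturated, and every member probe was well above background in both channels on all 4 arrays.

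The called genes had means below 0 on both slides. They were called on these same 4 arrays, so that this agreement is no separate support. Arrays 1 and 2 lay on one slide and arrays 3 and 4 on another, and the 8 called genes had means of -0.54 to -0.35 on the first and -0.71 to -0.29 on the second. With the slide as a random block 8 members were again called lower, beside 400 lower and 348 higher among all 22690 tested genes. The correlation within a slide was estimated at 0.0081, so that this fit could differ little from the planned one. The spread of single genes between slides was uneven, with petB at -0.43 and -0.71, and psbH at -0.43 and -0.29.

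Photosystem II was represented by 8 genes, of which 3 fell and 5 were not called. The gene psbB (ATCG00680) encodes CP47, an inner antenna protein of the core. Its corrected signal was 25874, 18957, 23710 and 23840 scanner units in exposed RNA on arrays 1 to 4, against 33248, 25276, 32396 and 35118 units in control RNA. Signals were not scaled between arrays, so that they are read within an array, and exposed RNA gave the lower one on every array. The log2 ratios were -0.36, -0.42, -0.45 and -0.56 (mean -0.45 ± 0.064 SE, n = 4 arrays, limma adjusted p = 0.0301). The other inner antenna protein, CP43, is the product of psbC (ATCG00280), which had 72551, 60341, 69706 and 77780 units in exposed RNA, against 89213, 79658, 93721 and 101703 units in control RNA. Its ratios lay closely together at -0.30, -0.40, -0.43 and -0.39 (mean -0.38 ± 0.060 SE, n = 4 arrays, limma adjusted p = 0.0368). The third called gene, psbH (ATCG00710), encodes a small phosphorylated subunit. It read 58330, 45488, 58691 and 60051 units in exposed RNA, against 75376, 64010, 70852 and 74173 units in control RNA (log2 ratio -0.36 ± 0.066 SE, n = 4 arrays, limma adjusted p = 0.0445). For both psbC and psbH exposed RNA gave the lower signal on every array.

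The reaction centre genes of photosystem II did not share this direction. The D1 protein, which is damaged and replaced in the light, is the product of psbA (ATCG00020). Its brighter probe read 198961, 228919 and 238528 units in exposed RNA on arrays 1, 2 and 4, against 165789, 165487 and 172786 units in control RNA. The spot on array 3 was an outlier spot and was left out, so that the fit used 3 arrays. All 3 ratios, 0.26, 0.47 and 0.47, were above 0, and the mean of 0.40 ± 0.083 SE was not called (limma adjusted p = 0.0669, n = 3 arrays). The gene for the partner protein D2, psbD (ATCG00270), had 83076, 59731, 84252 and 80457 units in exposed RNA, against 82008, 69127, 77661 and 80660 units in control RNA. Its ratios of 0.02, -0.21, 0.12 and -0.0036 scattered around 0 with a mean of -0.02 and a 95% interval of -0.20 to 0.16.

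The other small subunit genes of photosystem II lay on both sides of 0. The gene psbZ (ATCG00300) had ratios of 0.13, 0.32, 0.65 and 0.48, from 205352, 209621, 267050 and 237712 units in exposed RNA, against 187795, 168242, 169988 and 170247 units in control RNA. Its mean of 0.39 ± 0.095 SE was above 0 on all 4 arrays, varied between them with an SD of 0.224, and was not called (limma adjusted p = 0.0746, n = 4 arrays). The gene psbK (ATCG00070) lay on the other side, at -0.28, -0.56 and -0.37 on arrays 2 to 4 (mean -0.40 ± 0.087 SE, n = 3 arrays, limma adjusted p = 0.0707). Its spot on array 1 was an outlier spot and was left out. The gene psbE (ATCG00580), for a subunit of cytochrome b559, was at -0.12, -0.09, -0.19 and -0.19, below 0 on all arrays (mean -0.15, limma adjusted p = 0.188, n = 4 arrays).

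**Figure D2:**
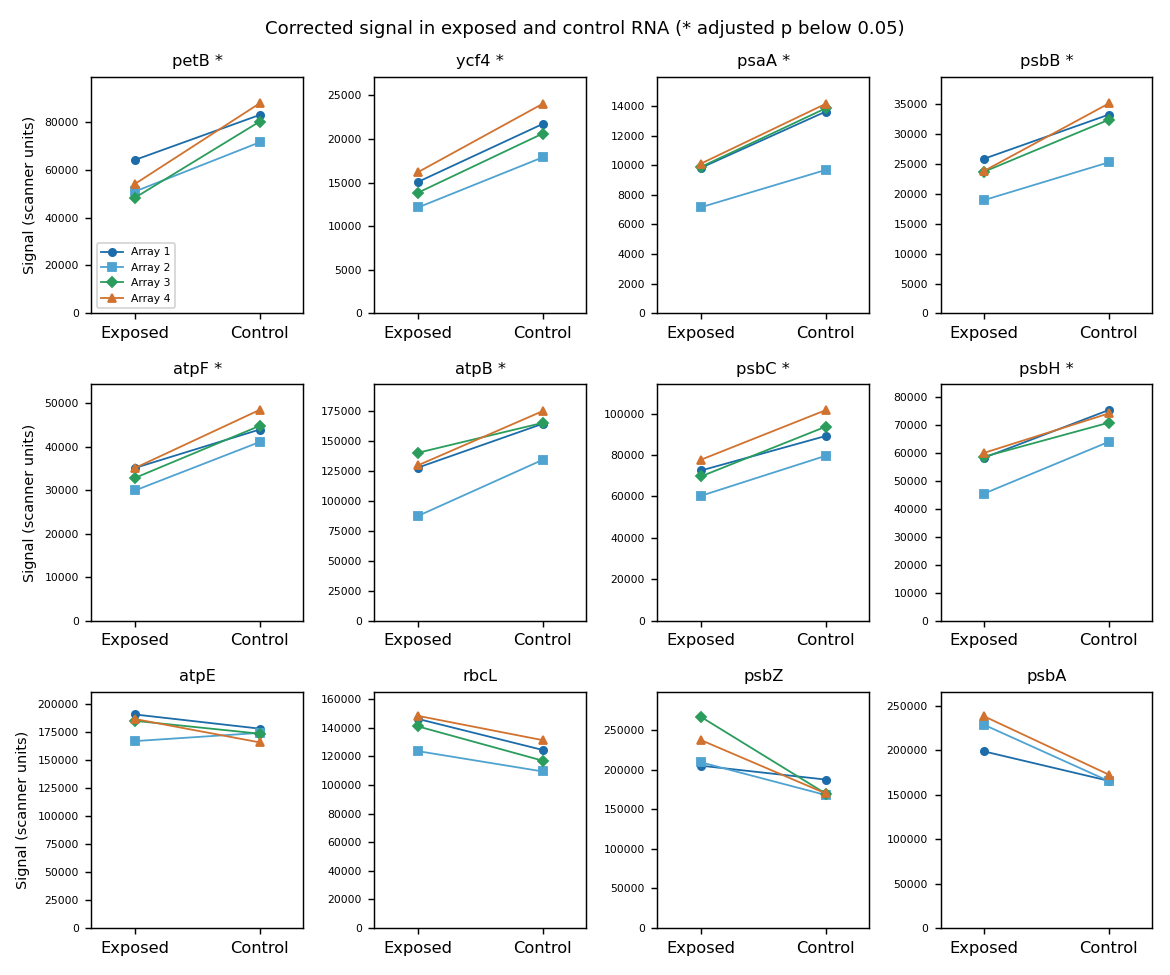
Loess-corrected signal in scanner units (y axes, each from 0) in exposed and control RNA of the same array, joined by a line, for the 8 called genes (asterisk) and the 4 genes with a fitted ratio above 0. Exposed RNA is lower on every array in the first 8 panels and higher on every measured array for rbcL, psbZ and psbA, while the lines of atpE cross.

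Of 3 measured photosystem I genes, psaA fell, and psaB and psaC were not called. The psaA and psaB products form the heart of the photosystem, and the psaC product holds its terminal iron-sulphur clusters. With the brightest of its probes psaA (ATCG00350) had 9828, 7167, 9888 and 10112 units in exposed RNA, against 13618, 9679, 13839 and 14141 units in control RNA. Exposed RNA was lower on each array. The ratios, -0.47, -0.43, -0.48 and -0.48, were nearly the same on every array (mean -0.47 ± 0.058 SE, n = 4 arrays, limma adjusted p = 0.0234). For psaB (ATCG00340) they were -0.04, -0.14, -0.07 and -0.17, all below 0 but with a mean of -0.10 and a 95% interval of -0.25 to 0.04. The ratios of psaC (ATCG01060), -0.21, -0.20, -0.25 and -0.19, agreed within 0.025 SD, and its mean of -0.21 ± 0.058 SE was not called with 4 arrays (limma adjusted p = 0.0922).

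The assembly factors of photosystem I, which are not part of the finished complex, were both below 0 on all 4 arrays. The gene ycf4 (ATCG00520) had the lowest p of all members. It read 15076, 12148, 13841 and 16196 units in exposed RNA, against 21714, 17891, 20614 and 24025 units in control RNA. Exposed RNA was lower on each array, and the ratios were -0.53, -0.56, -0.57 and -0.57 (mean -0.56 ± 0.058 SE, n = 4 arrays, limma adjusted p = 0.0162). The ratios of ycf3 (ATCG00360) were -0.18 and -0.21 on the first slide and -0.57 and -0.42 on the second, and their mean of -0.35 ± 0.085 SE was not called (limma adjusted p = 0.0774, n = 4 arrays).

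Of the cytochrome b6f genes, petB fell and petA and petD were not called. The gene petB (ATCG00720) encodes cytochrome b6 and had the lowest fitted ratio of the members. It had 64011, 50855, 48261 and 54016 units in exposed RNA, against 82754, 71346, 79980 and 87598 units in control RNA. Exposed RNA was lower on each array, and the ratios were -0.37, -0.49, -0.73 and -0.70 (mean -0.57 ± 0.082 SE, n = 4 arrays, limma adjusted p = 0.0301). The gene petA (ATCG00540), for cytochrome f, was at -0.13, -0.28, -0.28 and -0.13 (mean -0.20 ± 0.064 SE, n = 4 arrays, limma adjusted p = 0.12). Subunit IV is encoded by petD (ATCG00730), whose ratios of -0.03, -0.02, -0.11 and -0.0044 gave a mean of -0.04 with a 95% interval of -0.18 to 0.10.

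Of 4 measured ATP synthase genes, 2 fell. The gene atpF (ATCG00130) encodes a stalk subunit of the membrane part, and atpB (ATCG00480) the catalytic beta subunit of the outer part. Exposed RNA gave 35106, 29929, 32819 and 35096 units for atpF, against 43935, 41064, 44783 and 48452 units in control RNA, the exposed value being the lower on each array (log2 ratio -0.42 ± 0.062 SE, n = 4 arrays, limma adjusted p = 0.0304). For atpB the values were 127469, 87236, 139822 and 129396 units in exposed RNA, against 163945, 133944, 164716 and 174510 units in control RNA. Exposed RNA was again lower on each array. Its ratios of -0.36, -0.62, -0.24 and -0.43 varied more than those of atpF, and its mean of -0.41 ± 0.079 SE was the called value closest to the threshold (limma adjusted p = 0.0473, n = 4 arrays). The other outer subunits were not called, alpha from atpA (ATCG00120) at -0.15, -0.39, -0.05 and -0.10, and epsilon from atpE (ATCG00470) at 0.10, -0.06, 0.09 and 0.17.

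The Rubisco large subunit gene rbcL (ATCG00490) was above 0 on all 4 arrays without being called. It read 146137, 123608, 140899 and 148284 units in exposed RNA, against 124433, 109409, 116938 and 131292 units in control RNA. The ratios were 0.23, 0.18, 0.27 and 0.18 (mean 0.21 ± 0.059 SE, n = 4 arrays, limma adjusted p = 0.0953, 95% interval 0.07 to 0.36). Without array 4, rbcL (0.23, limma adjusted p = 0.00749), psbZ (0.37, 0.0019) and psbA (0.37, 0.00205) were the 3 members called higher. In that fit psbK, ycf3, psaC, petA and atpA joined the 8 genes called lower.

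The further probes of the 3 genes that had several had means of the same sign as the brightest probe. For psaA the 2 dimmer probes averaged -0.16 ± 0.058 and -0.34 ± 0.094 (SD, n = 4 arrays), against -0.47 ± 0.024 for the brightest. The dimmer atpB probe averaged -0.84 ± 0.161, with 38310, 32831, 30131 and 34673 units in exposed RNA, against 66367, 51628, 61739 and 64420 units in control RNA, while the brighter probe averaged -0.41 ± 0.159. For psbA the dimmer probe had -0.02, 0.20, 0.36 and 0.32 on arrays 1 to 4 (mean 0.21 ± 0.171) and included array 3.

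Genes of a common transcription unit were compared within each array. Among the members with a known common transcription unit, 6 units had at least 2 measured genes, giving 13 pairs. In 11 of the 13 pairs the difference had the same direction on every array, and in 9 its mean was above 0.3 in size on the log2 scale. The exact sign-flip p of a difference over 4 arrays cannot go below 0.125, and it was 0.125 for these 11 pairs. The other 2 pairs, psbB with psbH (-0.087 ± 0.155 SD, exact sign-flip p = 0.5) and psbH with petB (0.21 ± 0.248 SD, exact sign-flip p = 0.375), had no common direction over the 4 arrays. Probes of 1 gene lay as far apart as many of these pairs, as atpB at -0.41 and -0.84 and psaA at -0.47 and -0.16 show, so the part of the probe in a difference between genes cannot be told apart from that of the gene.

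The unit of psbD, psbC and psbZ held the widest difference, with psbC below psbZ by 0.43 to 1.08 on every array (mean -0.77 ± 0.274 SD, n = 4). In the same unit psbD was above psbC by 0.36 ± 0.148. The adjacent photosystem I genes differed by -0.36 ± 0.071, psaA being the lower, and atpB was below atpE by 0.49, with an SD of 0.121. In the unit of psbB, psbH, petB and petD the first 3 genes were all called lower, while petD lay above petB by 0.34 to 0.69 on the 4 arrays. The gene ycf4 was below petA by 0.28 to 0.44. In the gene table used here psbC overlaps psbD and atpE overlaps atpB. Where the probes lie in these genes is not given in the sources used here, and signal of a shared transcript in such pairs cannot be assigned to 1 gene.

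**Figure D3:**
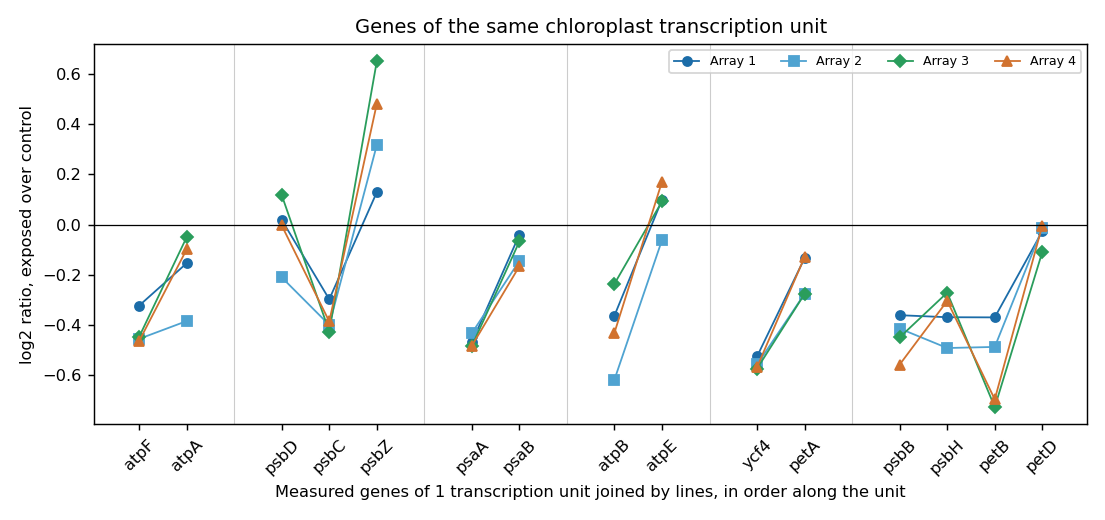
Log2 ratio of exposed over control (y axis) of the measured genes of 6 transcription units (x axis, in order along each unit), with 1 line per array. All 4 lines climb from psbC, below 0, to psbZ, above 0, and from petB to petD, nearer to 0, while those from psbB to psbH and from psbH to petB differ in direction between arrays.

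Brightness moved with the ratio among the members. Across the 21 genes, which share the arrays and the loess curve, the fitted ratio and the mean log2 intensity had Pearson's r = 0.494 and Spearman's rho = 0.47. The 4 genes with a ratio above 0 had intensities of 16.98 to 17.61, while the 8 called genes lay between 13.40 and 17.07. Bright members were not uniformly high, with psaB, the brightest at 17.73, at -0.10 and petA, at 17.26, at -0.20. The part of brightness in the ratios was not tested.

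**Figure D4:**
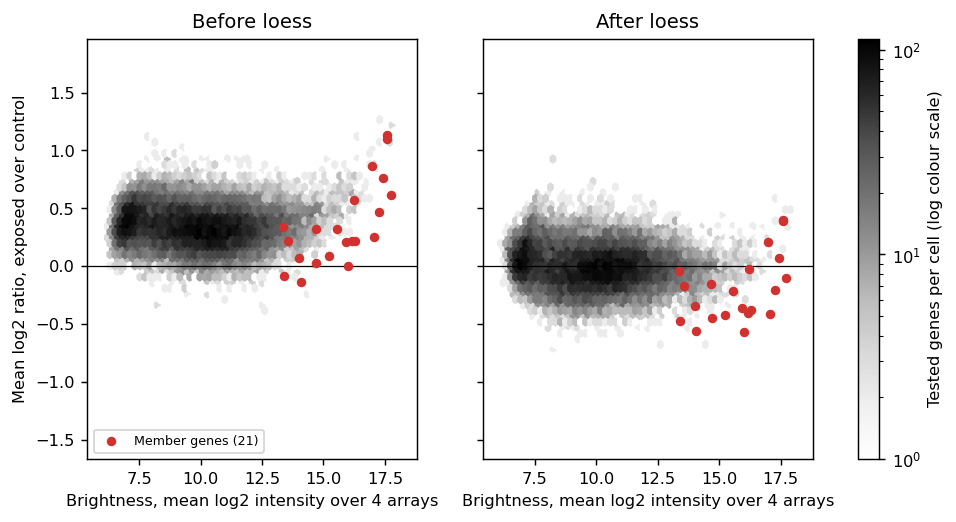
Mean log2 ratio of exposed over control over 4 arrays (y axis) against brightness (x axis) before and after the loess correction, for all 22690 tested genes (grey, darker for more genes) and the 21 members (red). Before correction 19 members lie above 0, as the loess curve does at their brightness, and after it 17 lie below 0.

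The order of the members was less dependent on the scaling than their sign. Over the 21 genes the ratios with loess and with median centring had Spearman's rho = 0.938, and those with loess and with the scanner software's log ratio 0.892. With the spots of chloroplast and mitochondrial loci left out of the curve, the order was the same. Of the members 8 were then called lower, beside 418 lower and 357 higher among all 22690 tested genes. With 4 arrays the 8 called genes were below 0, and psbA, psbZ and rbcL above 0, under each of these scalings, with ycf4 at -0.56 by loess, -0.53 by the scanner software and -0.45 by median centring. In contrast, psaB was at -0.10, -0.27 and 0.30, and atpE at 0.08, -0.11 and 0.45 under the same 3 scalings. With median centring and without array 4, atpB (0.082), psbC (0.047) and psbH (0.018) of the 8 were above 0. Median centring also moved the split over all tested genes to 167 higher and 50 lower, against 358 and 414 with loess.

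**Figure D5:**
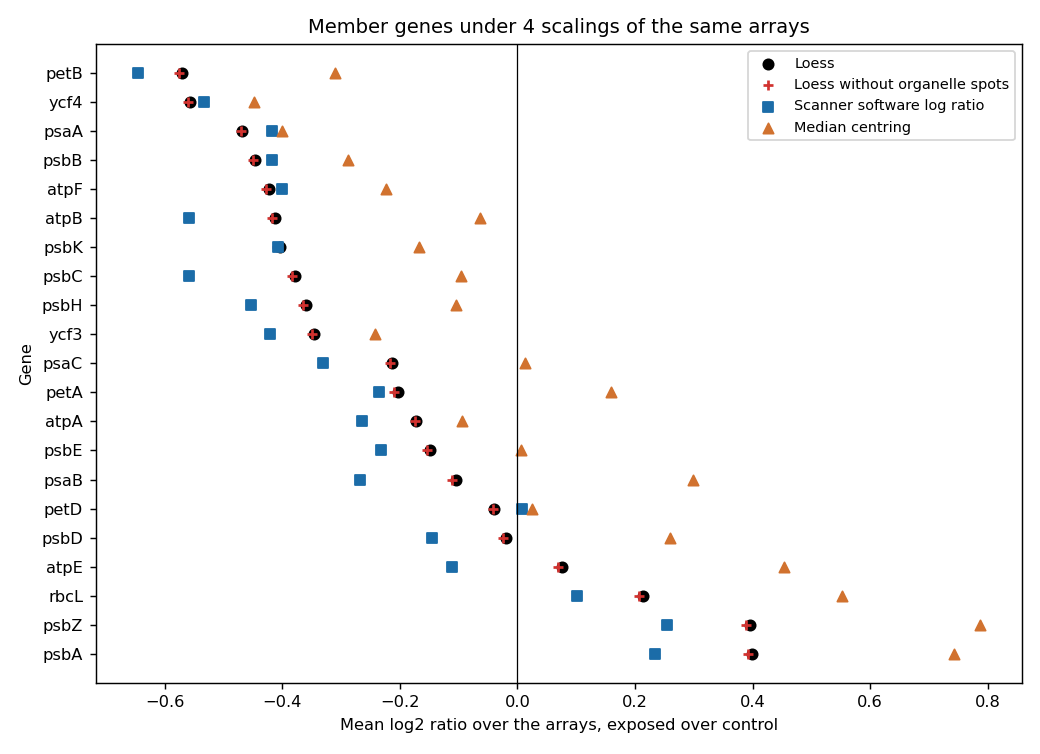
Mean log2 ratio of exposed over control over the arrays (x axis) of the 21 members (y axis, ordered by the loess value) under 4 scalings of the same arrays. Median centring puts every member above its loess value, psaB at 0.30 against -0.10, while ycf4 and psaA are at -0.45 and -0.40 or lower under each scaling.

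Most other chloroplast loci, which include genes for ribosomal proteins and the plastid RNA polymerase, were lower with loess. Of 45 tested loci outside the 35, 28 were called lower and none higher, and their median was -0.44 (-0.48 to -0.37 by array). The share called lower was 62.2%, against 1.82% of all tested genes. With median centring 3 were lower and 2 higher, and with the scanner software's log ratio 30 were lower and none higher. The same scalings called 0.22% and 2.34% of all tested genes lower, and 0.736% and 2.56% higher. Without array 4, 36 were lower and 2 higher with loess, 24 and 6 with median centring, and 38 and 0 with the scanner software's log ratio. Among all 22690 tested genes those fits called 3234 lower and 3819 higher, 1831 and 5620, and 3816 and 4256, in that order. Whether the members and these loci differ was not tested.

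Nuclear genes for subunits of the same complexes had calls that changed with the arrays and the scaling. Of 33 tested nuclear partners, 5 rose, none fell and 28 were not called, with a median of 0.026, at 0.034 to 0.124 by array. These are 15.2% higher and 0% lower, against 1.58% and 1.82% of all tested genes. Those called were PSBR (0.74), a small extrinsic subunit of photosystem II, PSBO1 (0.49, n = 3 arrays), the manganese-stabilising protein, and RBCS1A (0.49), RBCS2B (0.55) and RBCS3B (0.48), which encode the small subunit of Rubisco. The remaining listed small subunit copy, RBCS1B, was at 0.19 and was not called (limma adjusted p = 0.138, log2 intensity 17.82). Nor was PSBO2, the other listed PSBO gene, at -0.0085. The RBCS copies are so alike that 1 probe may bind transcripts of several. The 5 called genes were read by very bright probes, at log2 intensities of 17.61 to 17.90. Median centring called 10 partners higher and the scanner software's log ratio 1, with none lower in either. Of all tested genes the first called 0.736% higher and 0.22% lower, the second 2.56% and 2.34%. Without array 4, 11 were higher and 3 lower with loess, 30 and 0 with median centring, and 5 and 4 with the scanner software's log ratio. Over all 22690 tested genes these fits called 3819 higher and 3234 lower, 5620 and 1831, and 4256 and 3816, in that order. Within the ATP synthase, the nuclear genes ATPD (-0.21, limma adjusted p = 0.106), ATPC2 (-0.14), ATPC1 (-0.11) and ATPG (-0.09) were below 0 and not called.

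The labels name no tissue, and roots hold few chloroplast transcripts, so the level of root marker genes is given beside these ratios. All 15 root marker genes were well above background in both channels on every array. Of all gene spots 75.1% to 78.9% passed this mark on arrays 1 to 3, by channel, and 97.2% and 99.6% on array 4. The markers' log2 intensities ran from 7.10 (PLT1) to 17.47 (PYK10), against a median of 9.91 over all tested genes. Of the 15, the beta-glucosidase gene PYK10 (0.61) and the root hair gene PRP3 (0.44) rose and 13 were not called, with a list median of 0.11, at 0.063 to 0.182 by array. The share called higher was 13.3%, against 1.58% of all tested genes. Median centring called 2 of the markers higher and the scanner software's log ratio 3, with none lower in either. Those scalings called 0.736% and 2.56% of all tested genes higher, and 0.22% and 2.34% lower. Fitted ratios of 6 markers were below 0, among them those of the epidermal regulator WER (-0.36, limma adjusted p = 0.079) and the root hair regulator RHD6 (-0.23, 0.0936), which were below 0 on all 4 arrays and were not called. Without array 4, 6 markers were higher and 2 lower with loess, 8 and 2 with median centring, and 7 and 4 with the scanner software's log ratio. The same fits called 3819 higher and 3234 lower, 5620 and 1831, and 4256 and 3816 of all 22690 tested genes. The summed corrected signal of the 15 genes was 210701 to 267309 units in exposed RNA, against 151180 to 173637 units in control RNA. Without PYK10 it was 21815, 19000, 21241 and 30101 units in exposed RNA on arrays 1 to 4. In control RNA of the same arrays it was 18624, 16267, 18165 and 25765 units. Exposed RNA gave the higher sum on each array, with or without PYK10. The part of root tissue in the chloroplast ratios was not tested.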

How the data were processed

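Per the labels, 4 two-colour Agilent arrays held exposed RNA in Cy5 and control RNA in Cy3. The deposited scanner files give spot intensity for 45220 spots, made with Agilent Feature Extraction, version 11.5.1.1 per the file headers and 8.5.1.1 per the submitters' processing notes. Their log10 ratio column was deposited after the software's background and dye correction and served, as log2, as an alternative. The deposited log2 series matrix was not used: within 0.001, array 1 equalled log2 of exposed over control signal at 45220 spots (median -0.042), while the columns of arrays 2 to 4 matched, at 45219 spots or more, the error of the Cy3 signal divided by the Cy5 signal, in log2 (medians -3.17, -3.17 and -3.19).

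From the median spot signals, background was corrected by normexp (offset 50) and ratios by loess in R 4.3.3 with limma 3.58.1. Outlier spots were left out (19, 19, 13 and 142 per array). The planned fit required signal well above background in 1 channel on at least 3 arrays and took each gene's brightest probe. Corrected signals are each channel after loess, comparable within an array only. All 35 loci are accounted for, with values by array for members called with 4 arrays or without array 4 and for core members of each complex. Members, lists and transcription units (textbook units) were chosen with earlier results of these data known. Names match 35 of 35 plastid symbols in an NCBI gene table of TAIR10.1. The headers name another annotation, so no coordinates are given. The number of arrays limits the precision.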

Additional observations from a re-analysis of the deposited data

Results flagged for a closer look

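Of 24 sets of 4 array values tested for a single value far from the other 3, 1 passed the limit, and chance alone takes about 5% of such sets past it. It was the log2 ratio of atpF (ATCG00130), whose value on array 1, -0.32, lay apart from -0.46, -0.45 and -0.47 on arrays 2 to 4. The gap was 0.881 of the whole range of the 4 values.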

How the results depend on the processing

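The members had 8 called lower with plain background subtraction, with loess fitted without organelle spots, with the stricter filter on dim probes, with all probes of a gene averaged and with the slide as a random block. Of all tested genes those fits called 488, 418, 484, 392 and 400 lower, in that order. They called 657, 357, 411, 313 and 348 higher. The stricter filter tested 21460 genes, the others 22690. Without a filter on dim probes 5 of the 8 members were called lower, where 136 of 29030 tested genes were lower and 156 higher. Median centring called 2 members, both higher. Leaving out 1 array gave 0 to 16 called members, and arrays 1 to 3 as 1 sample gave 0. Settings chosen after seeing the data were the slide block, both scalings without array 4, and the other scalings for the comparison lists. Without array 4, median centring called 9 members (7 higher, 2 lower) and the scanner software's log ratio 16 (1 higher, 15 lower). Of all 22690 tested genes the first called 7451 (5620 higher, 1831 lower) and the second 8072 (4256 higher, 3816 lower). The member median was -0.065 with median centring, 0.082 with median centring without array 4, -0.33 when taken from the scanner software's own ratio, and -0.34 from that ratio without array 4.

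Over all tested genes 772 were called. The count was 1145 with plain subtraction (657 higher, 488 lower), 217 with median centring (167 and 50), 1110 from the scanner software's own ratio (580 and 530) and 292 without a filter (156 and 136). It was 0 to 7053 when 1 array was left out (0 without array 1, 2 or 3, with 3580, 3872 and 3494 genes at an unadjusted p below 0.05 in limma, and 3819 higher and 3234 lower without array 4). With arrays 1 to 3 as 1 sample it was 0, with 1317 at an unadjusted p below 0.05. Without array 4 it was 7451 with median centring (5620 and 1831) and 8072 from the scanner software's own ratio (4256 and 3816).

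Signs turned for psbD (0.26), psaB (0.30), petA (0.16), psbE (0.0062), petD (0.026) and psaC (0.012) with median centring. They turned for psbK (0.0086), atpA (0.016), psbD (0.40), psbC (0.047), psaB (0.46), atpB (0.082), petA (0.27), psbE (0.16), psbH (0.018), petD (0.15) and psaC (0.15) with median centring without array 4. Under the scanner software's own ratio atpE (-0.11) and petD (0.0083) turned, as they did without array 4 (-0.12 and 0.0014), and psbD turned when array 2 was left out (-0.065 to 0.044 over the 4 omissions). The cause of these changes was not tested. No paired analysis was possible because the replicate numbers name arrays of 1 group; the pairing of exposed and control RNA on an array is already in each ratio. No member was limited by dim signal.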

Other observations

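Mitochondrial loci are the other organelle transcripts on the array. Of 62 tested mitochondrial loci 1 was called higher, 4 were called lower and 57 were not called, with a median log2 ratio of -0.05, at -0.11 to -0.021 by array. These are 1.61% higher and 6.45% lower, against 1.58% and 1.82% of all tested genes. With median centring 1 was higher and none lower in limma, and with the scanner software's log ratio none was higher and 5 were lower. Of all tested genes median centring called 0.736% higher and 0.22% lower, and the scanner software's log ratio 2.56% and 2.34%. Without array 4, 3 were higher and 16 lower with loess, 4 and 9 with median centring, and 4 and 17 with the scanner software's log ratio. In that order, these fits called 3819 higher and 3234 lower, 5620 and 1831, and 4256 and 3816 of all 22690 tested genes.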
